A study of Mus musculus with 8 samples.

Results

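Expression of 7 genes of the monoamine systems was measured in 8 mouse brain samples: the synthesis enzymes Tph2 and Dbh, the transporters Slc18a2 and Slc6a2, and the receptors Drd1, Htr1b and Htr2c. They were chosen by symbol, as all probe sets annotated to 1 of these 7 genes, out of 9607 genes with a probe set of a single symbol. The choice gave 11 of 22511 probe sets, and 10 of the 11 passed the filter on dim signals and were tested. Each sample was hybridised to 1 Affymetrix 430B array, and the deposited values are MAS5 signal intensities, in arbitrary units. All animals were heterozygous for the reciprocal translocation T9H (T9H/+), and within each context 1 sample carried each of the opposite duplications. The "paternal-7" sample had a paternal duplication of proximal chromosome 7 with a maternal duplication of proximal chromosome 15 (patdup 7, matdup 15), and the "maternal-7" sample had the reverse (matdup 7, patdup 15). The 4 contexts were neonatal cortex, which the sample descriptions also call forebrain, neonatal cerebellum, whole embryonic brain at 15.5 dpc (days post coitum) and whole embryonic brain at 13.5 dpc. There was thus no replicate of a duplication within a context, and the 2 arrays of a context served as its replicates in comparisons between contexts. The labels do not say whether a sample was 1 animal or a pool, whether samples came from separate animals, or where the dissections ended, and the p-values therefore reflect the spread between these samples alone, which may be technical. None of the 7 genes lies on chromosome 7 or 15: Tph2 is on chromosome 10, Dbh on 2, Slc18a2 on 19, Slc6a2 on 8, Drd1 on 13, Htr1b on 9 and Htr2c on X.

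Serotonin neurons lie in the raphe nuclei and noradrenaline neurons in the locus coeruleus and neighbouring groups, all in the brainstem, and dopamine neurons lie mainly in the midbrain. Their axons reach the cortex, striatum and cerebellum, so the transcripts of synthesis and transport are made far from most of the cells that carry the receptors. Tph2 (tryptophan hydroxylase) starts serotonin synthesis in neurons, Dbh (dopamine beta-hydroxylase) turns dopamine into noradrenaline, Slc18a2 loads all of these amines into vesicles and Slc6a2 takes noradrenaline back up. Drd1 is a dopamine receptor abundant in striatal projection neurons and present in cortical neurons, Htr1b is an inhibitory serotonin receptor found largely on axon terminals, and Htr2c is an excitatory serotonin receptor of many neurons and of the choroid plexus epithelium.

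The promoters of both synthesis enzymes and of Drd1 are shown because Tph2 and Drd1 were the genes whose signals differed in opposite directions between the neonatal dissections, and Dbh is the other synthesis enzyme. Sequences are the 250 bases before the annotated start in RefSeq's annotation of the mouse build GRCm38.p6, and 6 of the 7 genes had an entry (Slc6a2 was not matched). Capitals mark matches, on either strand, to the TATA box (searched as TATAAA), the CCAAT box, the GC box (searched as GGGCGG), a part of the cyclic AMP response element (CGTCA), the AP-2 core (searched as GCCNNNGGC) and the core of GATA sites (GATAA). Lines give the sequence in the direction of transcription.
Tph2 (chr10:115185023-115185272, minus strand): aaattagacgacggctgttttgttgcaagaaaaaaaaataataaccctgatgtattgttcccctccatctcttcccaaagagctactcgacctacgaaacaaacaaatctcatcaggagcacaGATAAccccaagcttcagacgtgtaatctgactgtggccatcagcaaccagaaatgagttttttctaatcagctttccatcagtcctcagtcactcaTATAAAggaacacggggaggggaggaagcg
Dbh (chr2:27165257-27165506, plus strand): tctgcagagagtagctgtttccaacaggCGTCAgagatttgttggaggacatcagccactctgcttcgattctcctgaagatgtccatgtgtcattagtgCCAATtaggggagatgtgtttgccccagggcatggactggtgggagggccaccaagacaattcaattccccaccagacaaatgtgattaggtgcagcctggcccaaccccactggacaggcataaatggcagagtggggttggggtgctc
Drd1, first start (chr13:54055659-54055908, minus strand): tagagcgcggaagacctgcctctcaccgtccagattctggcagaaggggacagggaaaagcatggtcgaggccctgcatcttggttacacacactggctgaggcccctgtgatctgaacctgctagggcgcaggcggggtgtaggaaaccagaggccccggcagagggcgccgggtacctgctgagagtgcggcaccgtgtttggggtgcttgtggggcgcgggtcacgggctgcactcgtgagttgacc
Drd1, second start (chr13:54054781-54055030, minus strand): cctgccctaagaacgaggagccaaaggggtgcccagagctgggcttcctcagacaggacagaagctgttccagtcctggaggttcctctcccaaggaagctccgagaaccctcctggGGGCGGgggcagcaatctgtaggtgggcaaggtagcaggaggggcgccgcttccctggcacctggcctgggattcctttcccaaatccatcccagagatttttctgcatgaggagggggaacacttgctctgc

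Tph2 held TATAAA beginning 30 bases before the start and GATAA 127 bases before it, and Dbh held CGTCA at 222 and CCAAT at 150 bases before its start. The first Drd1 start had no match, and the second had GGGCGG at 133 bases. Among the promoters not printed, Slc18a2 had GGGCGG at 59 and 27 bases and GATAA at 230, Htr1b had CCAAT at 174 and 79 and GCCNNNGGC at 203, and Htr2c had CCAAT at 80. Over 32807 promoters of the same length, TATAAA occurred in 12.4%, CCAAT in 33.8%, GGGCGG in 32.7%, CGTCA in 17.8%, GCCNNNGGC in 13.7% and GATAA in 22.6%. No motif was shared by Tph2 and Dbh, and these matches are letters in the window and show no binding.

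Array medians ranged between 229.8 and 285.7 units, and signals under the median of their own array are regarded as indistinguishable from background. Differences are on the scale of log2(signal + 58.5), which understates the change of dim probe sets. A call means a Benjamini-Hochberg adjusted p under 0.05 over 13221 tested probe sets in a limma model with terms for context and duplication. Where 1 side lay below the median on all its arrays, a minimum fold change is given, with the dim side raised to the array median. Signals of different probe sets are not on 1 scale, so levels were compared between samples and not between genes. In whole tissue, fewer cells of a type and less RNA per cell cannot be told apart. Every neonatal sample was a dissected region and every embryonic sample a whole brain, so age and tissue cannot be told apart between them.

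**Figure D1:**
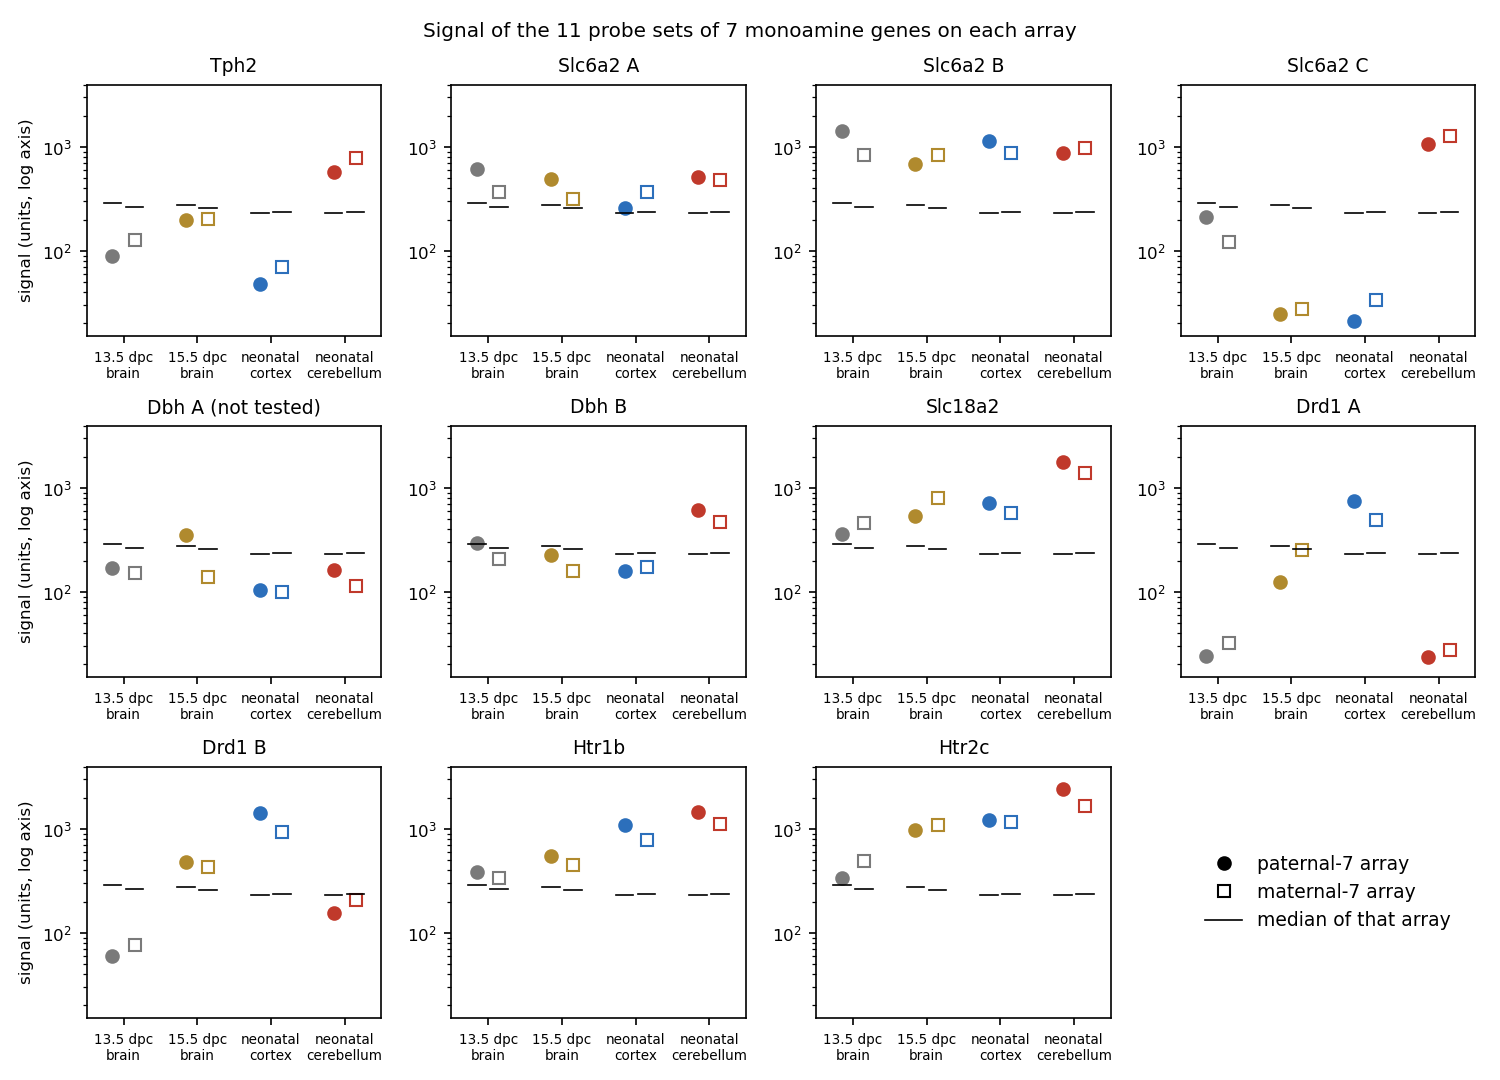
Signal of each of the 11 probe sets (log axis, arbitrary units) on the 8 arrays, in order of stage with cortex left of cerebellum; filled circles are paternal-7, open squares maternal-7, and short lines the median of each array. Tph2 and Slc6a2 C exceeded the median on the cerebellum arrays alone, and Drd1 A on the cortex arrays alone.

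Tph2, measured by 1 probe set (1435314_at), was found above background in a single context, the dissection labelled cerebellum. Its cortex signal was 48.0 (paternal-7) and 69.5 (maternal-7), against 569.6 and 789 in the paternal-7 and maternal-7 cerebellum. The whole brains gave 196 (paternal-7) and 203 (maternal-7) at 15.5 dpc, against 88.4 and 128 at 13.5 dpc. All 6 arrays other than those of the cerebellum were below their medians, and the groups did not overlap between cortex and cerebellum. The log2 difference, cortex minus cerebellum, was −2.64 ± 0.19 (SE; adjusted p = 0.00984), at least 2.88-fold lower in cortex. Cerebellum also exceeded the whole brain at 15.5 dpc by 1.5 ± 0.19 (adjusted p = 0.0175, at least 2.51-fold) and at 13.5 dpc by 2.14 ± 0.19 (adjusted p = 0.00123, at least 2.45-fold). Among the 3 contexts below the median, cortex was lower than 15.5 dpc brain (−1.14 ± 0.19, adjusted p = 0.0338), while 15.5 against 13.5 dpc (0.64 ± 0.19, adjusted p = 0.102) and cortex against 13.5 dpc (−0.50 ± 0.19, adjusted p = 0.0965) were not called. The probe set passed the filter through the cerebellum arrays alone, so a difference of that context from the others was built into its being tested.

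Dbh, the enzyme specific to noradrenaline and adrenaline cells, had 2 probe sets, both dim. Dbh B (1459848_x_at, of a type whose probes may match other transcripts) gave 158 and 173 in paternal-7 and maternal-7 cortex, against 613 and 466 in paternal-7 and maternal-7 cerebellum. At 15.5 dpc it gave 229 (paternal-7) and 160.3 (maternal-7), against 293 and 207 at 13.5 dpc. Only the cerebellum arrays and the paternal-7 array at 13.5 dpc exceeded their medians. Dbh B therefore passed the filter of 2 arrays only with the help of cerebellum, which favoured a higher cerebellum in its tests. Cerebellum was higher than the brain at 15.5 dpc (1.24 ± 0.21, adjusted p = 0.0297, at least 2.0-fold) and at 13.5 dpc (0.96 ± 0.21, adjusted p = 0.0183). Cortex minus cerebellum was −1.41 ± 0.21 with an adjusted p of 0.0668, which missed the threshold. The other contexts did not differ by the test: 15.5 minus 13.5 dpc was −0.29 ± 0.21 (adjusted p = 0.469) and cortex minus 15.5 dpc was −0.16 ± 0.21 (adjusted p = 0.638). Dbh A (1447592_at) exceeded the median on the paternal-7 array at 15.5 dpc alone, with a signal of 349.7 against 138 on the maternal-7 array there, lay between 99.1 and 168 on the other arrays, and was not tested. The 2 Dbh probe sets thus did not share the cerebellum pattern, since Dbh A read 163 and 113 in paternal-7 and maternal-7 cerebellum.

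Slc18a2 (1437079_at), the vesicular transporter shared by all monoamine neurons, was above the median on every array. Cortex gave 723 (paternal-7) and 578 (maternal-7), against 1795 and 1388 in cerebellum. Brain at 15.5 dpc gave 537 (paternal-7) and 799 (maternal-7), against 362 and 465 at 13.5 dpc. Both cerebellum values exceeded the other 6, and the 13.5 dpc values were the lowest. Cerebellum was higher than the 13.5 dpc brain by 1.80 ± 0.27 (adjusted p = 0.00525). Its excess over 15.5 dpc brain, 1.20 ± 0.27, had an adjusted p of 0.0538, and cortex minus cerebellum, −1.22 ± 0.27, had an adjusted p of 0.241. The cortex and the 15.5 dpc brain differed by −0.02 ± 0.27 (adjusted p = 0.971).

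Slc6a2, the noradrenaline transporter, had 3 probe sets that disagreed. Slc6a2 C (1460129_at) gave 21.1 in paternal-7 and 33.6 in maternal-7 cortex, against 1072 and 1273 in cerebellum. It gave 24.3 (paternal-7) and 27.3 (maternal-7) at 15.5 dpc, against 212 and 121 at 13.5 dpc. The 2 cerebellum arrays were the only ones above the median, by a wide gap. Cortex minus cerebellum was −3.84 ± 0.25 (adjusted p = 0.00984), at least 5.02-fold lower in cortex. Cerebellum exceeded 15.5 dpc brain by 3.86 ± 0.25 (adjusted p = 0.0106, at least 4.37-fold) and 13.5 dpc brain by 2.48 ± 0.25 (adjusted p = 0.00164, at least 4.28-fold). Its 15.5 minus 13.5 dpc difference of −1.39 ± 0.25 (adjusted p = 0.0308) lay between signals that were all below the median, so no fold change is given. As with Tph2, this probe set passed the filter through the cerebellum arrays alone.

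The other Slc6a2 probe sets did not show that pattern. Slc6a2 B (1447311_at), the brightest of the 3, gave 1148 and 879.8 in paternal-7 and maternal-7 cortex, against 871 and 976 in cerebellum, and between 693 and 1428 in the embryonic brains. Cortex minus cerebellum was 0.12 ± 0.28 (adjusted p = 0.981), and none of its differences between contexts was called. Slc6a2 A (1442449_at) gave 256 and 369 in paternal-7 and maternal-7 cortex, against 516 and 482 in cerebellum (−0.60 ± 0.29, adjusted p = 0.719), and between 316 and 612 in the embryonic brains. Over the 8 arrays, Slc6a2 C followed Slc6a2 B with a Pearson r of 0.174 and Slc6a2 A with 0.599. Its closest match among the 9769 other tested probe sets with a single symbol was Dbh B, with r = 0.952. These correlations are descriptions over arrays that share their contexts and have no p-value, and the match of Slc6a2 C was looked up after its values had been seen. No probe sequences were used here, so which part of Slc6a2 each probe set measures is not stated.

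**Figure D2:**
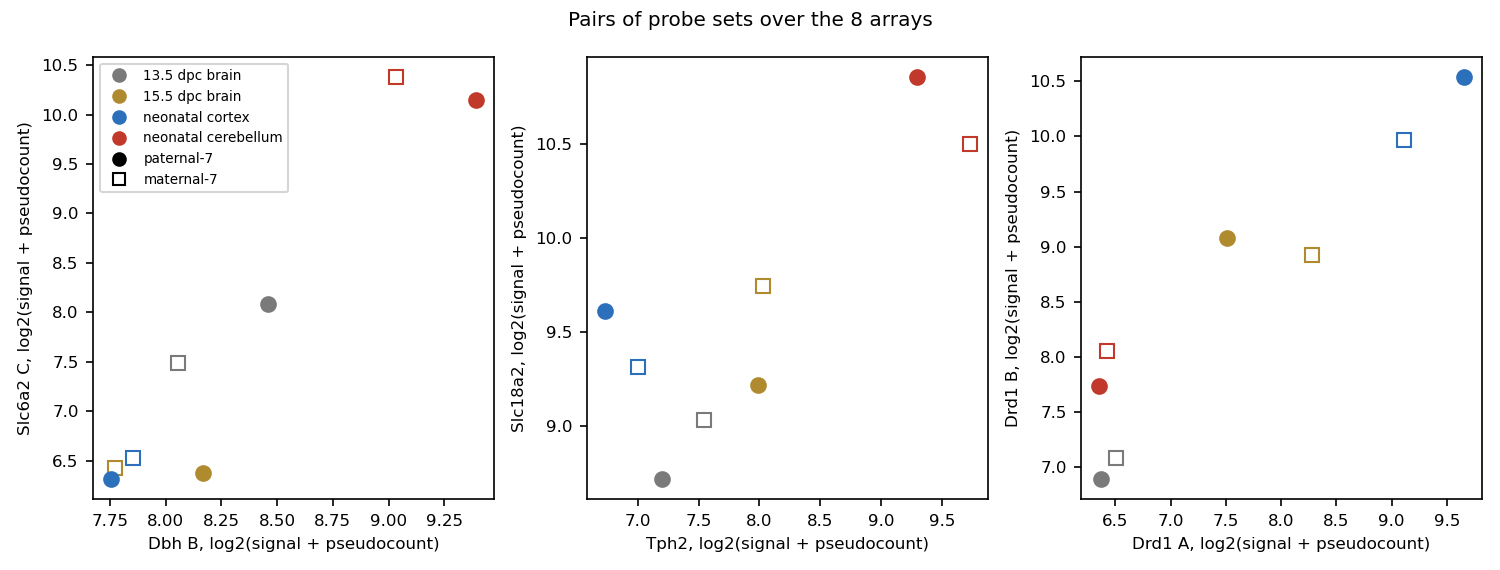
Pairs of probe sets over the 8 arrays, on log2(signal + pseudocount) axes, with 1 point per array marked by context and duplication. The pairs are Dbh B with Slc6a2 C (r = 0.952), Tph2 with Slc18a2 (r = 0.808) and Drd1 A with Drd1 B (r = 0.942).

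Drd1 ran the opposite way to Tph2, with its highest signals in cortex on both of its probe sets. Drd1 B (1456051_at) gave 1429 (paternal-7) and 942 (maternal-7) in cortex, against 155 and 207 in cerebellum. It gave 482 (paternal-7) and 428 (maternal-7) at 15.5 dpc, against 60.2 and 76.6 at 13.5 dpc. Cerebellum and the younger brain were below the median on both arrays, while cortex and the 15.5 dpc brain were above it. Cortex minus cerebellum was 2.36 ± 0.25 (adjusted p = 0.0293), at least 4.99-fold higher in cortex. Cortex also exceeded 15.5 dpc brain (1.25 ± 0.25, adjusted p = 0.0478) and 13.5 dpc brain (3.27 ± 0.25, adjusted p = 0.000794, at least 4.24-fold). Between the embryonic stages Drd1 B was higher at 15.5 than at 13.5 dpc by 2.02 ± 0.25 (adjusted p = 0.0151, at least 1.66-fold). Cerebellum minus 15.5 dpc brain was −1.11 ± 0.25 (adjusted p = 0.0571) and was not called.

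Drd1 A (1455629_at) was dimmer and passed the filter through the cortex arrays alone. Its signal was 747 in paternal-7 and 494 in maternal-7 cortex, against 23.3 and 27.4 in cerebellum. The embryonic brains gave 123 (paternal-7) and 251 (maternal-7) at 15.5 dpc, against 23.9 and 32.4 at 13.5 dpc. No array outside cortex reached its median, and cortex overlapped no other context. Cortex minus cerebellum was 2.99 ± 0.31 (adjusted p = 0.0259, at least 2.61-fold higher in cortex), cortex minus 15.5 dpc was 1.49 ± 0.31 (adjusted p = 0.0487, at least 2.27-fold) and cortex minus 13.5 dpc was 2.95 ± 0.31 (adjusted p = 0.00175, at least 2.22-fold). Over the 8 arrays the 2 Drd1 probe sets followed each other with r = 0.942.

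Htr1b (1442077_at) was above the median on every array. It was called between the neonatal and embryonic samples but not between the dissections. Cortex gave 1083 (paternal-7) and 788 (maternal-7), against 1448 and 1108 in cerebellum. Brain at 15.5 dpc gave 543 (paternal-7) and 453 (maternal-7), against 389 and 338 at 13.5 dpc. All 4 neonatal values exceeded all 4 embryonic ones. The neonatal mean exceeded the embryonic mean by 1.24 ± 0.13 on the log2 scale (adjusted p = 0.00153). By single contexts, cortex exceeded 13.5 dpc brain by 1.22 ± 0.18 (adjusted p = 0.00484), and cerebellum exceeded 15.5 dpc brain by 1.26 ± 0.18 (adjusted p = 0.0225) and 13.5 dpc brain by 1.65 ± 0.18 (adjusted p = 0.00200). Cortex minus cerebellum (−0.43 ± 0.18, adjusted p = 0.651), cortex minus 15.5 dpc (0.82 ± 0.18, adjusted p = 0.0570) and 15.5 minus 13.5 dpc (0.40 ± 0.18, adjusted p = 0.252) did not pass, so no neighbours in its order of levels were separated.

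Htr2c (1435513_at) also had neonatal values wholly above the embryonic ones. It gave 1221 (paternal-7) and 1178 (maternal-7) in cortex, against 2416 and 1667 in cerebellum. At 15.5 dpc it gave 987 (paternal-7) and 1086 (maternal-7), against 338 and 493 at 13.5 dpc. Its lowest values were those of the youngest brain, and the gap between cortex and the 15.5 dpc brain was narrow. The neonatal mean exceeded the embryonic mean by 1.17 ± 0.18 (adjusted p = 0.00537), and the 15.5 dpc brain exceeded the 13.5 dpc brain by 1.23 ± 0.26 (adjusted p = 0.0437). Cortex and cerebellum both exceeded 13.5 dpc brain, by 1.43 ± 0.26 (adjusted p = 0.0102) and 2.14 ± 0.26 (adjusted p = 0.00260), while neither was called against 15.5 dpc brain (0.20 ± 0.26, adjusted p = 0.649, and 0.92 ± 0.26, adjusted p = 0.0887). Cortex minus cerebellum was −0.72 ± 0.26 (adjusted p = 0.564). As Htr2c is also a gene of the choroid plexus, the list of that epithelium was set beside it (4 genes on the array, 3 tested). Ttr, the thyroid hormone carrier that marks the epithelium, ranged between 33731 and 39996 units in cortex, against 38239 and 42874 in cerebellum (−0.14 ± 0.23, adjusted p = 0.973), and between 47096 and 53757 at 15.5 dpc, against 22316 and 34490 at 13.5 dpc (0.86 ± 0.23, adjusted p = 0.0796). Between the embryonic stages Kcnj13, a potassium channel of the epithelium, was higher at 15.5 dpc by 1.03 ± 0.19 (adjusted p = 0.0314), and so was the dimmer of 2 probe sets of Clic6, a chloride channel protein (1.25 ± 0.27, adjusted p = 0.0438), whose brighter one gave 0.34 ± 0.19 (adjusted p = 0.334). None of the list's probe sets was called between the dissections or between the neonatal and embryonic samples, and the part of the choroid plexus in the Htr2c result was not tested.

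**Figure D3:**
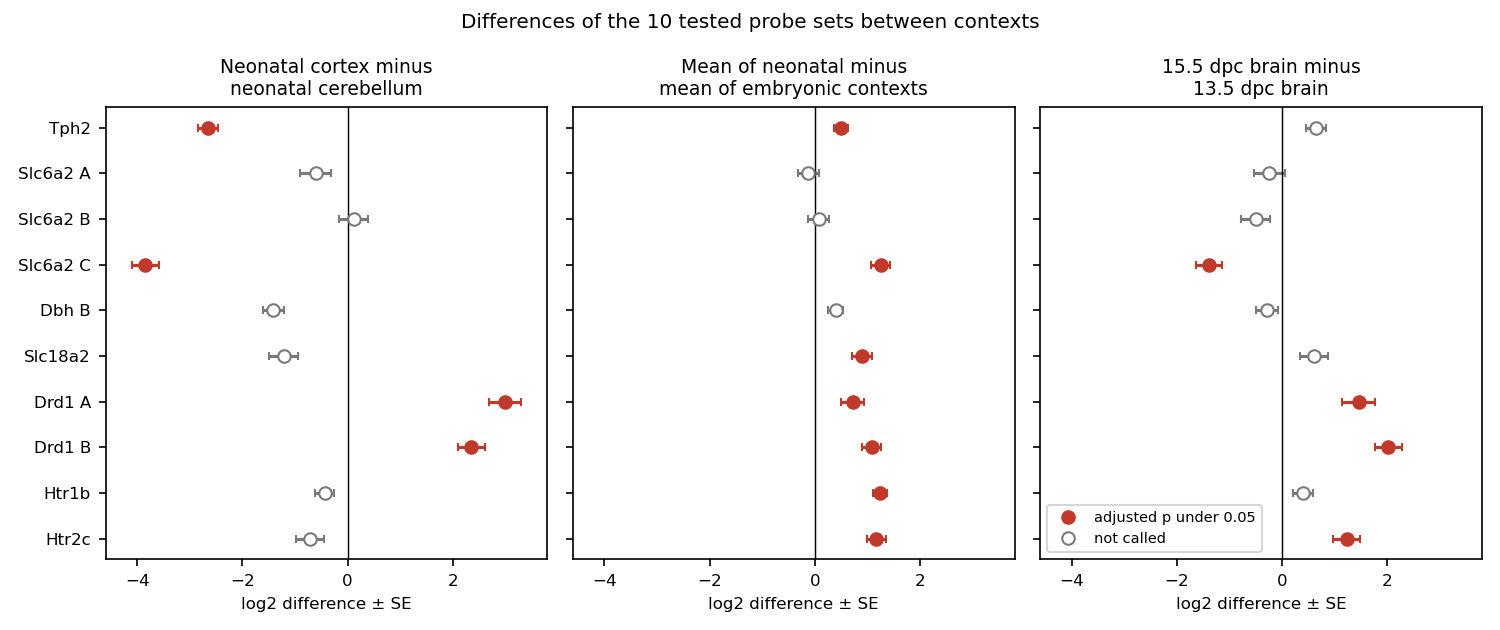
Log2 differences with their standard errors for the 10 tested probe sets in cortex minus cerebellum, in the neonatal mean minus the embryonic mean, and in 15.5 minus 13.5 dpc; filled red points have an adjusted p under 0.05. Tph2 and Slc6a2 C lay far below 0 and both Drd1 probe sets far above it in the first panel, and 7 probe sets were called higher, none lower, in the second.

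Between the neonatal dissections, 4 of the 10 tested probe sets were called, Drd1 A and Drd1 B higher in cortex and Tph2 and Slc6a2 C lower. Over all 13221 probe sets 0.325% were called, 0.197% higher and 0.129% lower in cortex. The members' count cannot be read against that share as support, because Tph2, Slc6a2 C and Drd1 A were tested only through the context in which they were high. Of the 7 genes, each taken by its brightest probe set, 2 lay above 0 and 5 below, with a median of −0.72, beside −0.01 over all tested probe sets. These calls needed all 4 neonatal arrays: without any single one of them no probe set of the whole array was called, and the adjusted p of Tph2 then lay at up to 0.220. Drd1 B lost its call in each of the 8 omissions (adjusted p up to 0.356) and Drd1 A in 6 of them, and both lost it when dim probe sets were not filtered out (adjusted p = 0.0953). The differences themselves moved little, with Tph2 between −2.75 and −2.54, Slc6a2 C between −4.01 and −3.67, Drd1 A between 2.56 and 3.43 and Drd1 B between 2.01 and 2.70 over the 8 omissions.

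In the neonatal mean against the embryonic mean, 7 of the 10 probe sets were called higher and none lower: Tph2, Slc6a2 C, Slc18a2, Drd1 A, Drd1 B, Htr1b and Htr2c. Of all probe sets 30.7% were called, 14.3% higher and 16.4% lower in the neonatal samples. The count is not set against these shares as support, because Tph2, Slc6a2 C and Drd1 A passed the filter through neonatal arrays alone, which favoured a higher neonatal mean. The median difference over the 7 genes was 0.89, beside −0.16 over all tested probe sets. Under quantile normalization and under median centring 8 of the 10 were called. For Tph2 (0.50 ± 0.13, adjusted p = 0.0325), Slc6a2 C (1.25 ± 0.18, adjusted p = 0.00383), Drd1 A (0.72 ± 0.22, adjusted p = 0.0450) and Drd1 B (1.08 ± 0.18, adjusted p = 0.00637) the neonatal mean averages a bright and a dim dissection, and their neonatal and embryonic signals overlapped. Slc18a2 (0.89 ± 0.19, adjusted p = 0.0151) overlapped as well, through its cortex values. Htr1b and Htr2c were thus the members whose neonatal arrays all stood above the embryonic ones. The share of such probe sets over the whole array is not given here, so nothing is read from this separation. The calls of Slc6a2 C, Drd1 B, Htr1b and Htr2c held in each of the 8 runs without 1 array. Tph2 lost its call in 7 of them, Drd1 A in 6 and Slc18a2 in 3. Tph2 (adjusted p = 0.134) and Drd1 A (adjusted p = 0.136) also lost it with an intensity trend in the limma moderation.

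Between 15.5 and 13.5 dpc, Drd1 A, Drd1 B and Htr2c were called higher and Slc6a2 C lower at 15.5 dpc, against 6.59% called over all probe sets, 3.52% higher and 3.07% lower. Drd1 A was higher by 1.45 ± 0.31 (adjusted p = 0.0428), between signals below the median on all 4 arrays. No more than 2 of these 4 calls were kept when any 1 array was left out, and those of Drd1 A (adjusted p = 0.0507) and Htr2c (adjusted p = 0.0541) were lost under median centring.

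In the other context pairs the filter favoured calls of Tph2, Slc6a2 C and Dbh B where cerebellum was 1 side. It likewise favoured calls of Drd1 A where cortex was 1 side. The shares over all probe sets are therefore given as background, and nothing is read from the counts. Over these pairs, 3 member probe sets were called in cortex minus 15.5 dpc (Tph2 lower, both Drd1 probe sets higher), where 4.22% of all were called, 2.7% higher and 1.52% lower. In cortex minus 13.5 dpc there were 5, against 25.7% of all (13.3% higher and 12.5% lower), with Slc6a2 C lower by 1.36 ± 0.25 (adjusted p = 0.0105, all 4 signals below the median) and Drd1 A, Drd1 B, Htr1b and Htr2c higher. Cerebellum minus 15.5 dpc also gave 5, against 5.46% of all (3.66% higher and 1.8% lower), with Tph2, Slc6a2 C, Dbh B and Htr1b higher and Drd1 A lower by 1.5 ± 0.31 (adjusted p = 0.0437, all 4 signals below the median). Cerebellum minus 13.5 dpc gave 7, all higher and 1 for each of the 7 genes, against 24.8% of all (13% higher and 11.8% lower). Drd1 B, the dopamine receptor's brighter probe set, was among these with 0.91 ± 0.25 (adjusted p = 0.0419), between signals below the median.

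The other genes of monoamine neurons were mostly outside this array or showed no call. Of 34 genes in the list (further synthesis and breakdown enzymes, transporters and the transcription factors that specify these neurons), 10 had a probe set and 8 were tested. In cortex minus cerebellum 1 was called, Tfap2b, a transcription factor needed for noradrenaline neurons and also present in developing cerebellar interneurons: its signal was 363 in paternal-7 and 339 in maternal-7 cortex, against 6639 and 7313 in cerebellum (−4.10 ± 0.32, adjusted p = 0.00983). Lmx1b, which specifies serotonin neurons, gave 378 and 400 in paternal-7 and maternal-7 cortex, against 910 and 851 in cerebellum (−1.07 ± 0.18, adjusted p = 0.106). The breakdown enzymes Maoa (−0.52 ± 0.33) and Maob (−0.44 ± 0.25) and the receptor kinase Ret (−1.01 ± 0.22) were not called, nor were Nr4a2 (0.28 ± 0.26), the amine transporter Slc29a4 (0.14 ± 0.19) and Hand2 (−0.08 ± 0.24). Of the 8 tested genes 2 lay above 0 and 6 below, and the list's median was −0.48, beside −0.01 over all probe sets.

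By stage, Lmx1b (−0.68 ± 0.13, adjusted p = 0.00939) and Hand2, a factor of sympathetic noradrenaline cells (−1.11 ± 0.17, adjusted p = 0.00484, at least 2.12-fold), were lower in the neonatal samples, and none of the 8 was higher by its brightest probe set. Hand2 was also lower at 15.5 than at 13.5 dpc (−1.43 ± 0.24, adjusted p = 0.0266). Its probe set exceeded the median only on both 13.5 dpc arrays and the paternal-7 array at 15.5 dpc. Hand2 thus passed the filter through embryonic arrays alone, which favoured these calls. A dimmer probe set of Nr4a2, a factor of dopamine neurons that cortical cells also express, was higher in the neonatal samples by 1.69 ± 0.25 (adjusted p = 0.00426), while its brightest gave 0.30 ± 0.19 (adjusted p = 0.243). Of 30 other monoamine receptors, 6 had a probe set and 3 were tested: Htr5a (−0.54 ± 0.22), Htr7 (−0.42 ± 0.22) and Adra2c (−0.19 ± 0.18) lay below 0 in cortex minus cerebellum, and none was called in that comparison or between stages.

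Marker lists of regions were set beside the members to see what each dissection held. Between the neonatal dissections, the summed signal of midbrain and hindbrain genes was higher in cerebellum, as that of Tph2 was. The 8 genes together gave 1781 to 2276 units in cortex, against 7444 to 7703 in cerebellum. They gave 4603 to 6000.4 at 15.5 dpc, against 6495 to 7875 at 13.5 dpc. Of the 8, 3 exceeded the median on both arrays in cortex, against 6 in cerebellum. Shox2, at 3168 (paternal-7) and 2922 (maternal-7), was the largest part of the cerebellum sum. Hoxa3 and Hoxb3 overlapped between the dissections. Hoxa3 gave 423 and 437 in paternal-7 and maternal-7 cortex, against 445 and 369 in cerebellum. Hoxb3 gave 150 and 262, against 372 and 169. At 13.5 dpc the sums reached the range of the cerebellum, while Tph2 was below the median in the embryonic brains. Lmx1b stands in this list and in that of the monoamine neurons. Pax7 (−3.86 ± 0.37, adjusted p = 0.0208, at least 4.84-fold), Pou4f1 (−2.45 ± 0.20, adjusted p = 0.0105, at least 3.88-fold) and Shox2 (−2.39 ± 0.25, adjusted p = 0.0270) were called lower in cortex, and 7 of 8 lay below 0 with a median of −1.42. These 3, of which Pou4f1 had a dimmer probe set that was not called (−1.44 ± 0.24, adjusted p = 0.101), are transcription factors of dorsal midbrain and brainstem neurons. The part of these regions in the Tph2, Slc6a2 C and Dbh B signals of the dissection labelled cerebellum was not tested. Cerebellar markers themselves were few on this array: 7 of 23 listed had a probe set, 4 were tested and none was called. Their summed signals were 5679 to 8242 in cortex, against 7632 to 8389 in cerebellum. The largest part was Zic1, with 3646 and 6283 in paternal-7 and maternal-7 cortex, against 4437 and 4795 in cerebellum. Of the 4 tested, 1 lay above 0 and 3 below in cortex minus cerebellum, with a median of −0.41.

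Between the neonatal dissections, the summed signals of striatal and of cortical genes were higher in cortex, as those of Drd1 were. Over all 4 contexts neither sum kept the order of Drd1 B, but bright probe sets weigh most in such sums. In the striatal sum, Foxp2 gave 4824 and 5506 in paternal-7 and maternal-7 cortex, against 5683 and 6208 in cerebellum, and was not called. Bcl11b, also bright, was higher in cortex, at 9196 and 9541 in paternal-7 and maternal-7 cortex, against 2571 and 2340 in cerebellum. Meis2 gave 6114 and 6997, against 3508 and 3131. Summed over 15 genes, striatal markers gave 38494 to 39292 units in cortex, against 25749 to 26054 in cerebellum, and 22946 to 25066 at 15.5 dpc, against 16877 to 19940.3 at 13.5 dpc. Of 14 tested, 12 lay above 0 in cortex minus cerebellum and 1 was called, Bcl11b, a factor of striatal and deep-layer cortical projection neurons (1.91 ± 0.23, adjusted p = 0.0342). The striatal list's median was 0.20, beside 0.40 for the cortical list and −0.01 over all tested probe sets. Gng7, a G protein subunit that works with Drd1 in the striatum, had 1.5 ± 0.20 with an adjusted p of 0.0527. Between stages, 7 of the 14 were called higher in the neonatal samples, against 14.3% of all probe sets. Of these 7, Strip2 and Gpr6 passed the filter through neonatal arrays alone, so nothing is read from the count. Gnal, the striatal G protein through which Drd1 signals, was higher at 15.5 than at 13.5 dpc by 1.38 ± 0.19. So was Syndig1l, by 1.20 ± 0.24. A dimmer Gnal probe set was also called higher (2.51 ± 0.47, adjusted p = 0.0325) and another was not called (−0.07 ± 0.24, adjusted p = 0.896). The dimmer Syndig1l probe set was not called (0.45 ± 0.21, adjusted p = 0.256). Cortical markers gave 11677 to 12229 in cortex, against 5217 to 6130.4 in cerebellum, and 10992 to 11374 at 15.5 dpc, against 5714 to 6656 at 13.5 dpc. The cortical sum at 15.5 dpc was thus close to that of cortex, and the striatal sum at 15.5 dpc lay below that of cerebellum, while Drd1 B at 15.5 dpc was lower than in cortex and read above both cerebellum arrays. In cortex minus cerebellum, Slc17a7, a vesicular glutamate transporter (2.34 ± 0.26, adjusted p = 0.0293), and Neurod2, a factor of cortical excitatory neurons (1.64 ± 0.19, adjusted p = 0.0319), were called higher, and all 7 tested genes lay above 0. Whether the Drd1 signal of the cortex samples came from cortex or from striatum taken with it was not tested.

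**Figure D4:**
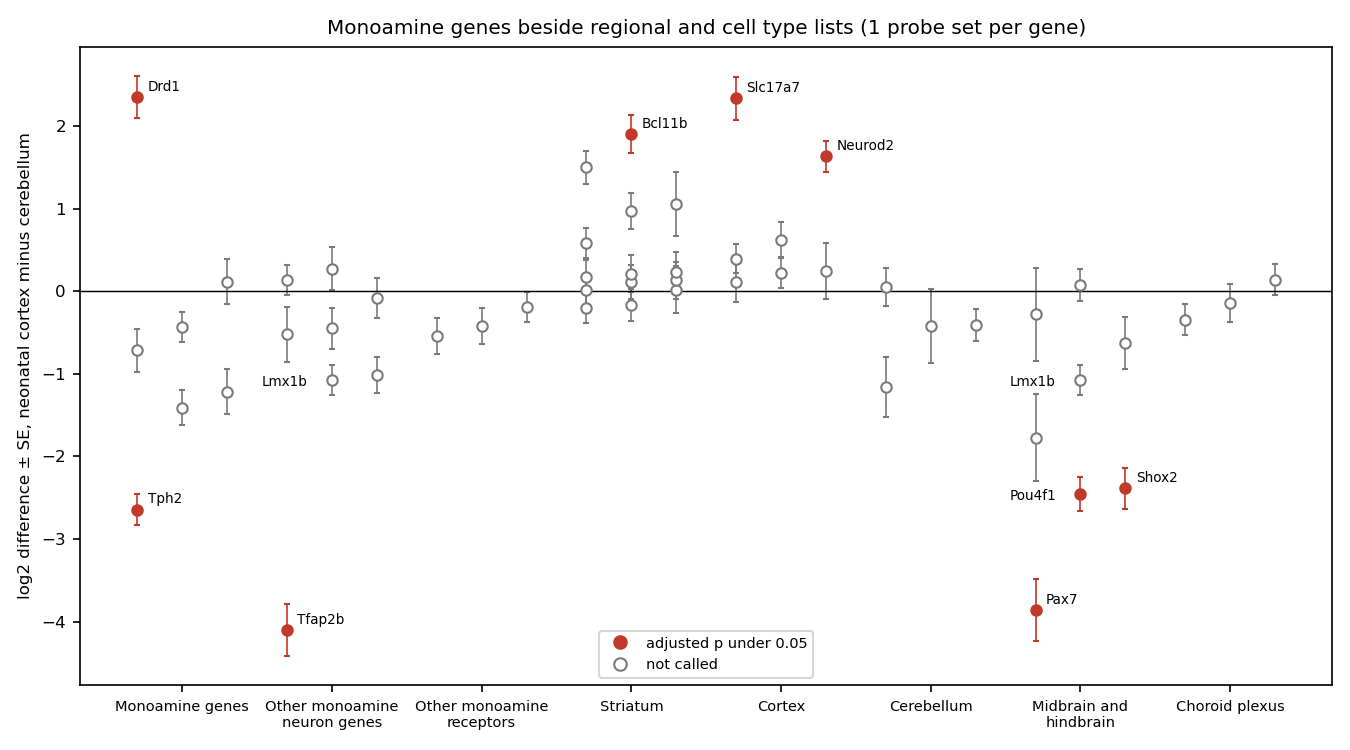
Log2 difference with its standard error, neonatal cortex minus cerebellum, for the brightest tested probe set of each gene, with the 7 monoamine genes beside the lists of other monoamine genes and of regional and cell type markers; filled red points have an adjusted p under 0.05. Tph2 lay on the same side as Tfap2b, Pax7, Pou4f1 and Shox2, and Drd1 on the same side as Bcl11b, Slc17a7 and Neurod2.

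The probe sets most like each member over the 8 arrays were listed by Pearson r of log2 values, as descriptions over arrays that share contexts. For Tph2 these were both probe sets of Cnpy1 (0.977 and 0.970) and Rfx4 (0.957), for Dbh B they were Slc6a2 C (0.952), Ssu2 (0.923) and Hcrtr1 (0.907), and for Slc18a2 they were Umad1 (0.989), Setd5 (0.980) and Zfp956 (0.974). The brightest Slc6a2 probe set, Slc6a2 B, had only looser matches in Mapk1ip1l (0.917), Poln (0.911) and Gas6 (0.899). Drd1 B was closest to 2900052N01Rik (0.989), Homer1 (0.977) and Nr4a3 (0.974). Htr1b was closest to Rasgrf2 (0.995), Lzts3 (0.990) and Caskin1 (0.989), and Htr2c to Ctxn2 (0.993), Vstm2l (0.990) and Lrrc75b (0.987). Among the members themselves, Tph2 followed Dbh B with r = 0.826 and Slc18a2 with 0.808, while Slc18a2 also followed Htr2c (0.904) and Htr1b (0.821).

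The duplications made no called difference in any member. With the 4 contexts as blocks, 0 of the 10 tested probe sets were called in paternal-7 minus maternal-7 by limma, none had an unadjusted p under 0.05, and the smallest adjusted p was 0.577. Over all probe sets 0.00756% were called, 1 probe set, higher in paternal-7, and 0% lower. Htr1b was higher in paternal-7 in every context, by 0.43 for cortex, 0.37 for cerebellum, 0.23 for the 15.5 dpc and 0.17 for the 13.5 dpc brain (mean 0.30 ± 0.13, adjusted p = 0.577). Tph2 was lower in paternal-7 in every context, with differences of −0.26, −0.43, −0.04 and −0.35 in the same order (mean −0.27 ± 0.13, adjusted p = 0.590). The untested Dbh A was higher in paternal-7 in all 4, by 0.05 to 1.06, and Dbh B in 3 of 4. The other 7 probe sets had both signs, and their mean differences lay between −0.11 ± 0.22 (Drd1 A) and 0.21 ± 0.21 (Slc6a2 A).

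The effect of the duplication was also compared between stages, as the neonatal minus the embryonic paternal-7 minus maternal-7 difference. No member was called (smallest adjusted p = 0.506), and over all probe sets 0% were called by limma, although 1209 had an unadjusted p under 0.05. Among the members 2 had an unadjusted p under 0.05: Slc18a2, higher in paternal-7 in both neonatal tissues and lower at both embryonic stages (0.75 ± 0.24), and Slc6a2 A (−0.78 ± 0.29).

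**Figure D5:**
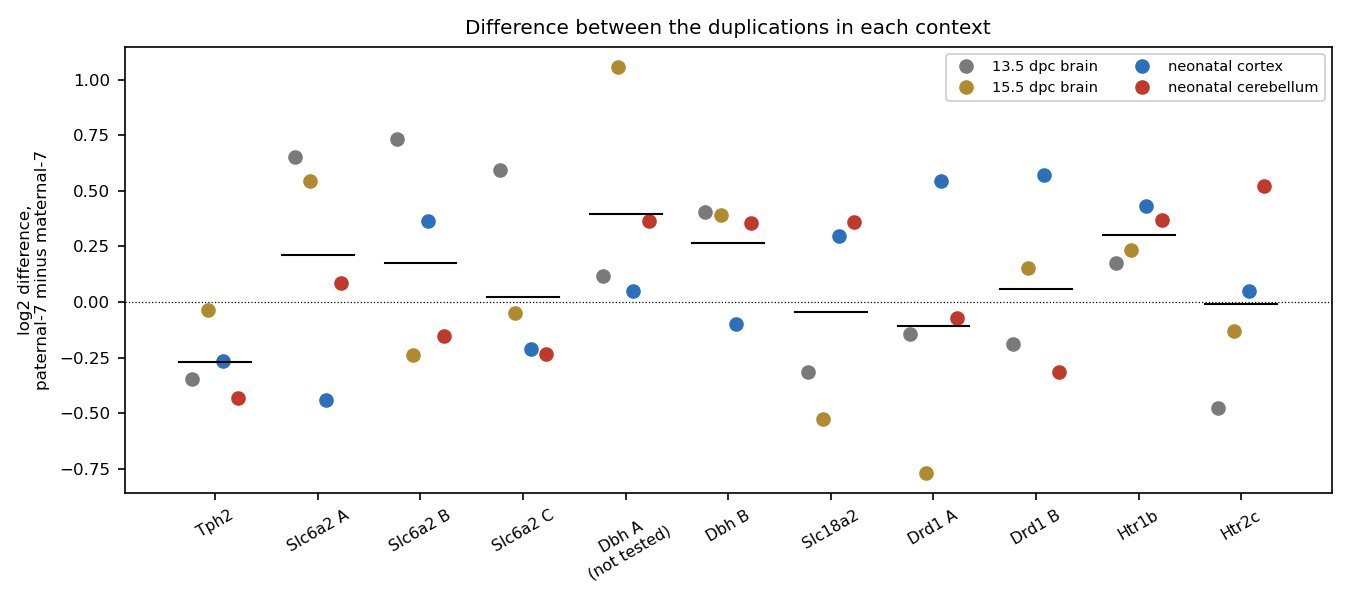
Log2 difference, paternal-7 minus maternal-7, of each of the 11 probe sets in each of the 4 contexts, with 1 point per context. Htr1b and Dbh A lay above 0 in all 4 contexts and Tph2 below 0 in all 4, and the other probe sets had both signs.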

How the data were processed

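RNA of 8 mouse brain samples was measured on 1 Affymetrix 430B array each. The deposited values are linear signal intensities, made by the authors with MAS5 per the submitters' processing notes, of a version not given in the sources used. MAS5 summarises each array alone, so dim signals are noisy; no detection calls were used. The trimmed mean (2nd to 98th percentile) was near equal on all arrays, so intensities were not rescaled. After 64 control probe sets were set aside, 22511 remained, of which 14661 had 1 gene symbol, 245 several and 7605 none in the platform annotation, updated through RefSeq.

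Analysis used log2(signal + 58.54), with the 20th percentile of an array's signals (median of the 8 arrays) as pseudocount. Probe sets above the array median on at least 2 of 8 arrays were tested (13221, 58.7%, with 6902 genes). limma 3.58.1 in R 4.3.3 fitted context and duplication with moderated variances (3 residual degrees of freedom), and a second model added the interaction of stage with duplication (2 residual degrees of freedom). Adjustment by Benjamini-Hochberg ran over all tested probe sets. The fit was tested on simulated data. A gene's main probe set is the tested one with the highest mean log2 value, and a probe set below the array median on all arrays of 1 side got a minimum fold change, from geometric means without pseudocount.

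Every member probe set was named, with the 3 most similar probe sets of each main one, the called genes of the lists of other monoamine genes and receptors, and up to 4 called genes of each marker list; other listed genes were named after their values were seen. The members and lists were chosen with earlier results of these data known. The number of arrays limits the precision. Quantile normalization, median centring, a pseudocount of 16, no filter, a stricter filter (4 arrays), an intensity trend, the neonatal arrays alone and the omission of each array were tried.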

Additional observations from a re-analysis of the deposited data

Results flagged for a closer look

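One value of a member stood apart from the others of its kind. The paternal-7 minus maternal-7 log2 difference of Dbh B was −0.0982 in neonatal cortex, while the other 3 contexts lay between 0.36 and 0.40. Its gap to the nearest of the others, as a share of the whole range, exceeded Dixon's critical value for 4 values, which chance exceeds in about 5 percent of such groups. Both cortex signals of Dbh B, 158 in paternal-7 and 173 in maternal-7, were below their array medians.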

How the results depend on the processing

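Of the called member differences between dissections and stages, 70 of 86 alternative runs kept the call, 16 lost it and 0 changed sign; in 120 runs that left out 1 array all kept the sign and 56 kept the call. The 4 member calls in cortex minus cerebellum became 2 without the filter, 1 with the stricter filter, which tested fewer probe sets, and 0 to 3 when 1 array was left out. Those in 15.5 minus 13.5 dpc (4) became 2 with the intensity trend, with median centring and with the stricter filter, 1 without the filter and 0 to 2 without 1 array. In neonatal minus embryonic the 7 became 4 with the stricter filter and 4 to 6 without 1 array. Over the 6 context pairs 28 became 16 without the filter, 15 with the stricter one and 10 to 19 without 1 array. For all probe sets, 43 in cortex minus cerebellum became 87 with the trend, 11 without the filter, 27 with a pseudocount of 16 and 0 to 21 without 1 array; 871 in 15.5 minus 13.5 dpc became 1411 with the trend, 207 without the filter and 0 to 522 without 1 array; 4055 in neonatal minus embryonic became 1827 to 3523 without 1 array; and the 1 in paternal-7 minus maternal-7 became 3 with the trend, 0 without the filter, 2 with the stricter filter, 4 in the neonatal arrays alone and 0 to 2 without 1 array. Signs changed only among differences that were never called. Slc6a2 A in neonatal minus embryonic was 0.0314 under quantile normalization and 0.0533 under centring. In paternal-7 minus maternal-7, Slc6a2 C was −0.00626 under quantile normalization, −0.0132 under centring, −0.00724 with a pseudocount of 16 and −0.22 in the neonatal arrays alone, where Slc6a2 A was −0.18, Slc18a2 0.33, Drd1 A 0.24 and Htr2c 0.28. Without 1 array, Slc6a2 B ranged between −0.10 and 0.34 in cortex minus cerebellum and −0.11 and 0.26 in neonatal minus embryonic, and Slc6a2 A between −0.54 and 0.0531 in 15.5 minus 13.5 dpc and −0.34 and 0.10 in neonatal minus embryonic. In paternal-7 minus maternal-7 the ranges were −0.0105 to 0.31 for Slc6a2 B, −0.17 to 0.11 for Slc6a2 C, −0.18 to 0.11 for Slc18a2, −0.33 to 0.11 for Drd1 A, −0.12 to 0.18 for Drd1 B and −0.19 to 0.15 for Htr2c. The causes were not tested. Where an array was left out, the lone array of its context was assumed to vary like the others. With 2 arrays per context and 3 residual degrees of freedom, and with several member signals near or below the array median, small differences were not detectable here. The 2 arrays of a context were paired in the model by the context term.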

Other observations

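Pmch, the hypothalamic peptide MCH, was the called gene of the hypothalamus list: its signal was 1468 in paternal-7 and 1018 in maternal-7 cortex, against 196 and 222 in cerebellum (2.26 ± 0.27, adjusted p = 0.0342, at least 5.26-fold). The other 2 tested genes of that list lay on the other side and were not called, Crh, a stress peptide, with −0.97 ± 0.19 (adjusted p = 0.158) and Otp, a transcription factor, with −0.66 ± 0.36 (adjusted p = 0.775), and the list's median was −0.66. Of 4 genes of peripheral ganglia on the array, all tested, none was called between the dissections, with summed signals of 1081 to 1148 in cortex, against 1510.4 to 1540.4 in cerebellum. The lists of oligodendrocytes, endothelium and meninges had 2, 1 and 1 tested genes and no call in that comparison, and those of microglia and red blood cells had 0 genes on this array.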
